A study of Mus musculus with 16 samples.

Results

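The expression of 51 DNA replication and S-phase genes was measured in haematopoietic stem cells (HSCs) of WT mice and of mice labelled as Gfra2 knockouts. The genes form a list by known function, and all 51 were found by symbol among the 46078 genes of the count table. They fall into 11 roles, from the recognition of replication origins to the supply of nucleotides and histones. The mice were on the C57/Bl6 strain, were untreated, and carried either the WT or the knockout (KO) genotype of Gfra2, the gene of the GFRα2 co-receptor of neurturin. Their age was not given. HSCs were sorted as Lin-Sca1+cKIT+CD48-CD150+ cells in pools of 30, so that a library is an average over few cells. They came from the marrow flushed out of long bones (central BM) or from the crushed, flushed bones (endosteal BM). The 15 libraries used were 4 endosteal WT, 4 central WT, 4 endosteal and 3 central libraries labelled Gfra2-/-, and letters name the libraries of a group without pairing them. Nothing in the sources used here says which pools came from the same animal, so p-values measure only the spread between these libraries.

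DNA is copied in S phase of the cell cycle. In G1 the origin recognition complex, CDC6 and CDT1 load the MCM2-7 helicase onto origins, and this step is called licensing. Kinases, MCM10, CDC45 and the GINS complex then switch the helicase on, polymerases extend the strands on the PCNA clamp, and enzymes such as ribonucleotide reductase and thymidylate synthase supply the nucleotides. Many of these genes are transcribed under E2F factors at the passage from G1 to S. Most adult HSCs rest outside the cycle, and the study asked whether GFRα2-dependent cholinergic signals keep HSCs quiescent in each part of the BM. In a pool of cells, a larger share of cells in S phase and more of a transcript per cell cannot be told apart.

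Depth followed the groups. Reads counted on genes ranged from 826487 to 3367289 in the central WT libraries, and every one of the other 11 libraries was deeper, from 4416648 to 18550008. In a comparison with the central WT group, the group and its low depth cannot be told apart. Gfra2 itself had 0 to 4 counts in each WT library, so its loss could not be checked at this depth. It had 47 counts in endosteal library B and 9 in endosteal library D, although both are labelled as knockouts, and 0 to 2 in the other KO libraries. These counts were not scaled to depth. B was the deepest library, with 18550008 gene counts, and D had 11985523. The 4 counts in WT were those of central WT C, the shallowest library, with 826487. Whether the labels of B and D are right was not tested. Samples of the KO genotype are therefore called libraries labelled Gfra2-/-, and values without endosteal B and D are given beside the comparisons that hold them. The share of spike-in reads was under 0.5% in 1 library of each group (endosteal WT D, central WT D, endosteal Gfra2-/- D and central Gfra2-/- C). The genes of the sort gate (Kit, Ly6a, Slamf1 and Ptprc) and 8 HSC genes, Procr, Mecom and Hlf among them, had reads in all 15 libraries. Cd48, which the gate excludes, lay between 0 and 17.4 counts per 1e6 scaled gene counts (CPM). For CPM, the gene counts of a library, over the genes kept, were multiplied by its TMM normalisation factor. Of the lists for other cell types, the summed level of 7 B cell genes was 4438 CPM in endosteal Gfra2-/- D and 13.7 to 870 CPM elsewhere, and that of 7 erythroid genes was 672 CPM in the same library and 11.8 to 109 CPM elsewhere. The 8 neutrophil and monocyte genes summed to 2624 and 3417 CPM in central WT C and D, 1632 CPM in central Gfra2-/- C and 478 to 996 CPM in the other libraries. All 7 B cell, 7 erythroid and 8 neutrophil and monocyte genes had reads in at least 1 library, and the endothelial gene Cdh5 had none in any. The part of such transcripts in the results was not tested.

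The promoters of the replication genes are shown first. Promoter sequence was not used to choose the genes. Many of them are known to be transcribed under E2F factors, so the share with an E2F motif is not independent of the choice. RefSeq windows of 300 bases on GRCm38.p6, from 250 bases before to 50 bases after a start site, were at hand for 43 of the 51 genes, and not for Gins1, Gins2, Gins4, Gmnn, Mcm4, Pole, Prim2 and Rfc2. They were searched on both strands for the E2F motif TTTNNCGC, in which each N is C or G. The motif stood in at least 1 window of 16 of the 43 genes (37.2%), and in 704 of the 27025 genes with windows (2.61%). Of these 16 genes, 4 encode MCM subunits (Mcm3, Mcm5, Mcm6 and Mcm7), 4 encode polymerase subunits (Pola1, Pold1, Pold3 and Pole2), and the licensing genes Cdc6 and Cdt1 both held it. None of the 5 genes of nucleotide supply, 3 of replication protein A and 3 of histone deposition and supply did. In 9 genes the motif stood before the start site, and 6 of these stretches, with the motif and 20 bases to either side, or fewer where the start site is nearer, are shown for genes whose values are given below. Capitals mark every match, as the motif or, where it reads on the other strand, as its reverse complement. In Mcm5 there are 2 matches, 1 on each strand, which overlap, and in the other 5 stretches there is 1 match. The Mcm6 stretch lies at chr1:128359725-128359772 (minus strand), Mcm5 at chr8:75109340-75109387 (plus), Mcm7 at chr5:138172021-138172068 (minus), Cdc6 at chr11:98907993-98908040 (plus), Orc1 at chr4:108579407-108579453 (plus) and Pola1 at chrX:93632266-93632313 (minus), all upstream of the RefSeq start.
Mcm6: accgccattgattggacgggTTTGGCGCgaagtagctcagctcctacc
Mcm5: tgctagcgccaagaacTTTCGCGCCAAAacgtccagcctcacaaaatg
Mcm7: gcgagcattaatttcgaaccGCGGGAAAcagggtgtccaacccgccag
Cdc6: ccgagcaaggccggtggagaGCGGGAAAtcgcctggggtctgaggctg
Orc1: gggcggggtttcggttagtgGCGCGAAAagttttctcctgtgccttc
Pola1: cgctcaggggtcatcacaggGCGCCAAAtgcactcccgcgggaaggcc
The Mcm6 windows held 3 copies of the motif and those of Mcm5 and Mcm7 2, and those of Cdc6, Orc1 and Pola1 held 1. CCAAT, the core of NF-Y sites, was in 26 of the 43 genes (60.5%) against 41.1% of all genes. TTTGAA, the core of the CHR element of late cell-cycle genes, was in 6 (14.0%) against 20.2%. These are matches of letters in a window and say nothing of binding.

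Replication transcripts were present in every group. At least 48 of the 51 genes had a read in each library, and 38 to 51 had 10 reads or more. Per kb of exon, which allows genes to be compared, the median of the 51 genes was 19.7 CPM per kb as a mean over the 4 groups. The median of the 15416 genes kept over all libraries was 6.35 CPM per kb, and 43 of the 51 genes lay above it. Mcm6 was the highest at 98.1 CPM per kb, followed by Dut, whose enzyme keeps uracil out of DNA, at 94.7 and Mcm3 at 74.2. Mcm6 reached 102 CPM per kb in endosteal WT, 97.5 in central WT, 107 in endosteal Gfra2-/- and 85.7 in central Gfra2-/- libraries. The order of these 4 values was not larger than the spread between libraries. The lowest were Fen1 (1.42 CPM per kb), E2f2 (2.72), Orc1 (2.90), Chaf1a (3.36), Mcm10 (3.77) and Cdc6 (4.07). All 4 central WT libraries had 0 Fen1 counts. Of the exon bases of Fen1, 84.2% lie under other genes (Gm10143 and Tmem258), and so do 67.3% of those of Gins2 (Gse1) and 52.5% of those of Chaf1a (Ubxn6). Reads there can be set aside as ambiguous. The counts of these 3 genes are therefore uncertain, and their levels per kb of exon can be too low.

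**Figure D1:**
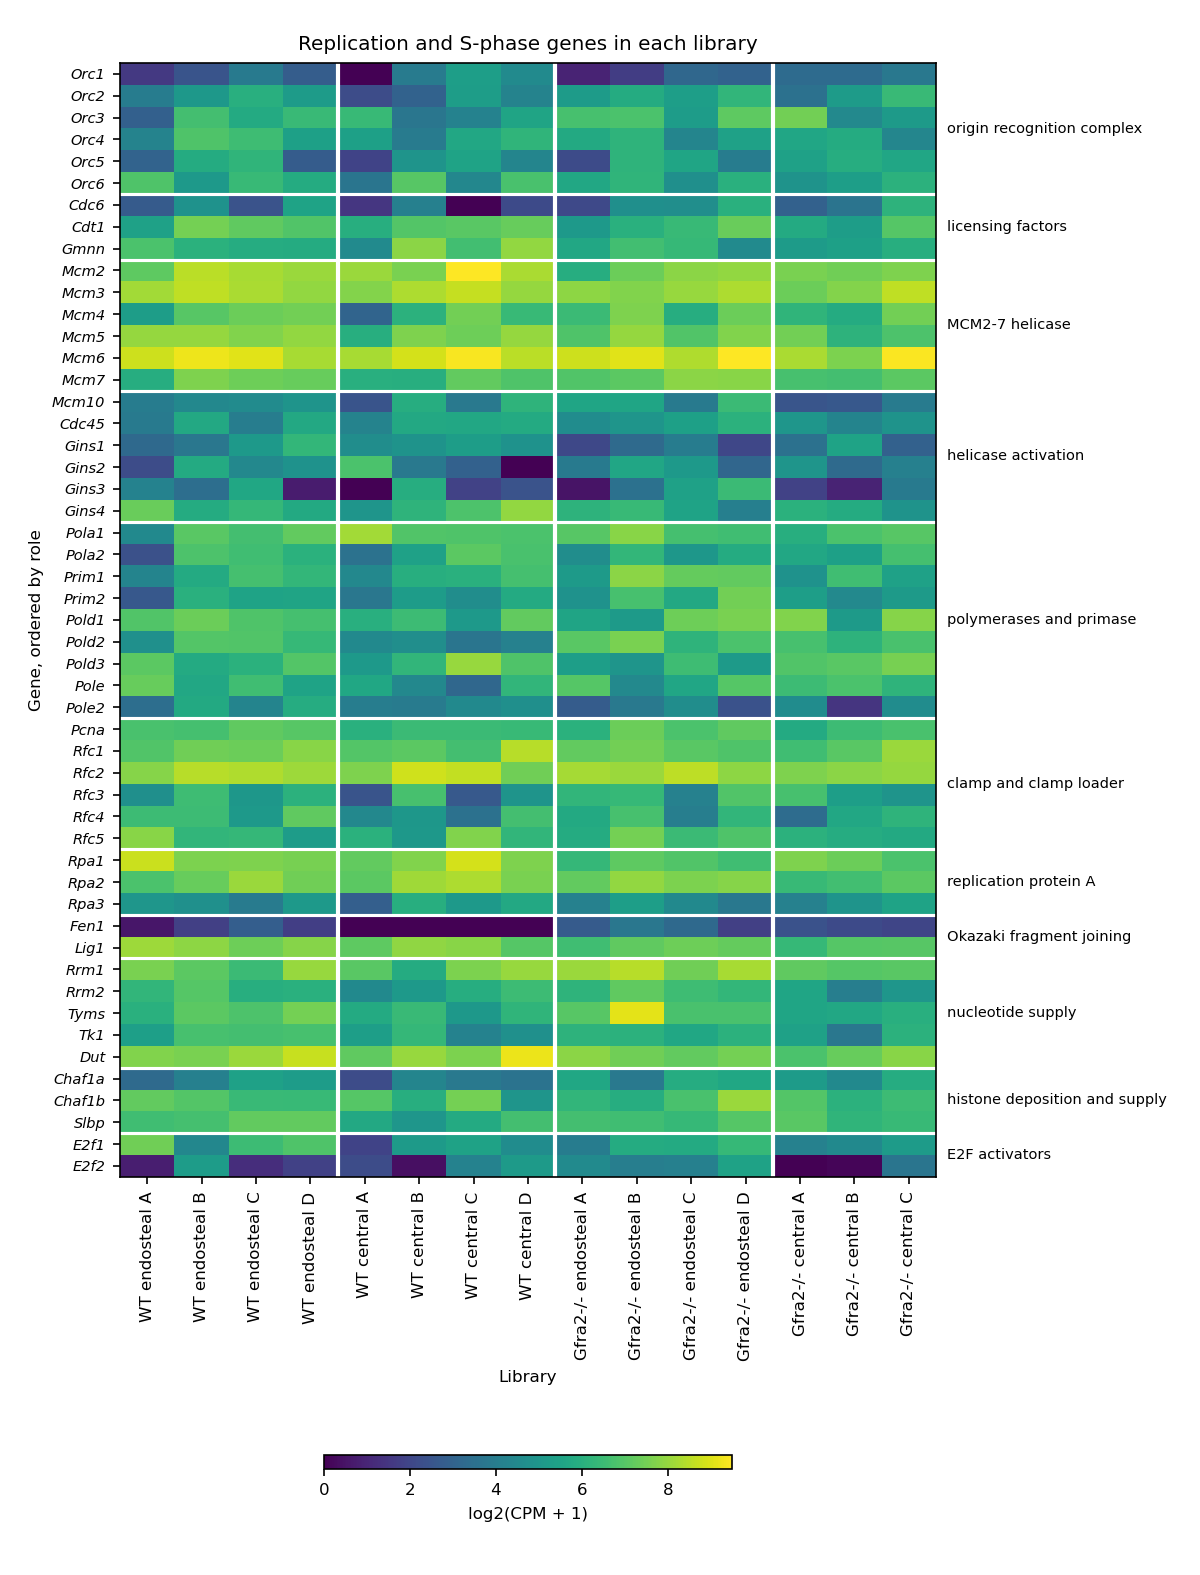
Level of each of the 51 genes (rows, by role) in each of the 15 libraries (columns, by group), as log2(CPM + 1) in colour. The MCM2-7 rows are bright in all groups, Mcm6 most of all, whereas Fen1, Orc1, Cdc6 and E2f2 are dark, and 4 Fen1 squares in central WT are at 0.

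Libraries of a group differed widely. The coefficient of variation of a gene between libraries had a median of 49.9% over the 51 genes in endosteal WT, 63.5% in central WT, 50.2% in endosteal Gfra2-/- and 45.2% in central Gfra2-/- libraries. Over all genes kept, it was 70.1%, 87.2%, 63.1% and 59.0% in the same order. Lig1 (DNA ligase 1, which seals Okazaki fragments) and Pcna were among the steadiest genes, with 19.4% to 31.7% and 13.8% to 34.9% over the 4 groups. Gins3 and E2f2 were among the most variable, and Gins3 ran from 0.41 to 88.1 CPM among endosteal Gfra2-/- libraries.

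Summed over the 51 genes, and with the libraries of each group in the order of their letters, endosteal WT had levels of 4879, 6068, 5688 and 5739 CPM, and central WT 3333, 4942, 6307 and 5876 CPM. Endosteal Gfra2-/- had 4178, 6291, 4665 and 6277 CPM, and central Gfra2-/- 3923, 3437 and 5261 CPM. Values per library stand in the same order throughout. The ranges of the 4 groups overlapped. Among endosteal Gfra2-/- libraries, B or D was the highest for 40 of the 51 genes (78.4%), against 51.9% of all genes kept. These are the libraries with 47 and 9 Gfra2 counts. The library with the low spike-in share was the highest of its group for 14 of 51 genes in endosteal WT (27.5%, against 23.0% of all genes), 19 in central WT (37.3% against 25.1%), 17 in endosteal Gfra2-/- (33.3% against 26.4%) and 31 in central Gfra2-/- (60.8% against 33.3%).

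**Figure D2:**
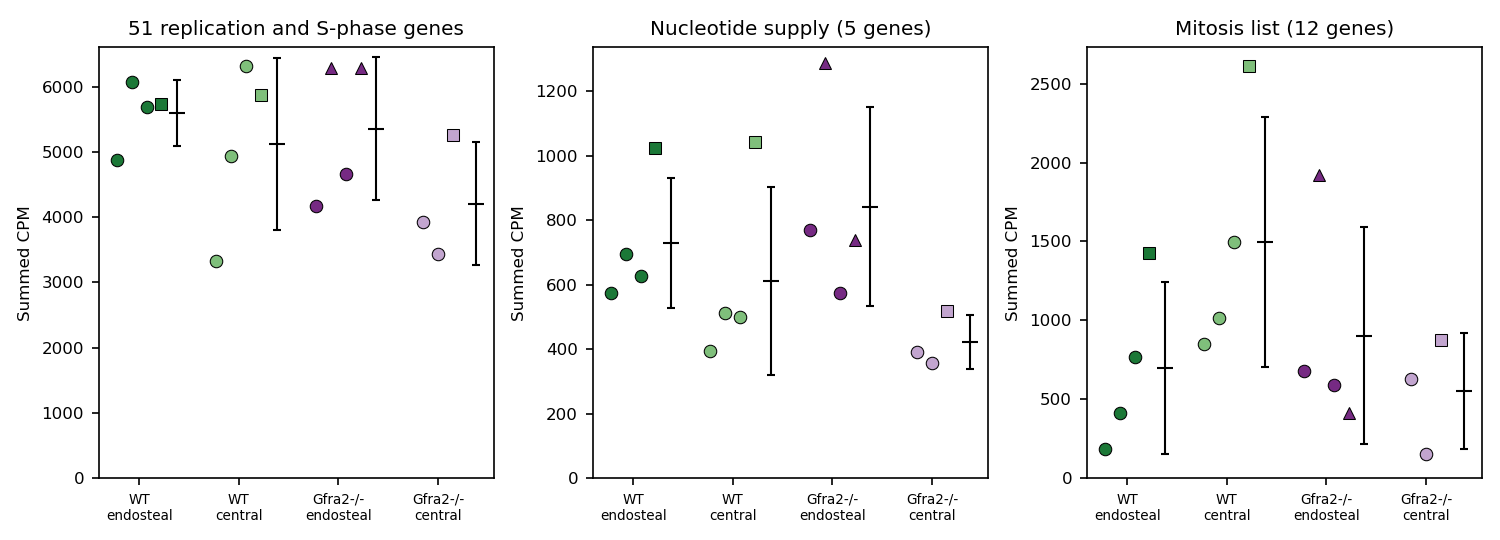
Summed CPM of the 51 genes, of the 5 genes of nucleotide supply and of 12 mitosis genes, 1 symbol per library. Black bars are the mean ± SD of a group, triangles are endosteal Gfra2-/- B and D (47 and 9 Gfra2 counts), squares are the other libraries with under 0.5% spike-in reads. The 4 groups overlap for the 51 genes, with both triangles at the top of their group.

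The first comparison asks how HSCs of the endosteal and the central BM differ in WT mice. Only single genes were tested, and not a shift of the list as a whole. Of the 51 genes, 50 were tested (Fen1 was too low), 33 had a higher and 17 a lower fitted level in endosteal HSCs, and 51.5% of all genes were higher. The split depended on the scaling: it was 26 against 24 with DESeq2's size factors, and 23 against 27 with spike-in size factors, relative to the median of all genes. Spike-in size factors moved the median of all genes to 1.58 here and to -0.46, 1.75 and -0.28 in the next 3 comparisons, so values under them are given relative to these medians. The median log2 fold change of the 50 genes was 0.13, against 0.03 over the 11181 genes tested. In the libraries with over 0.5% spike-in reads the median was 0.29. In the pair of libraries with low spike-in shares, the median difference of log2(CPM + 1) was -0.05, so the sign depended on the libraries. None of the 50 passed an FDR of 0.1 in edgeR (0.00% of all genes did), 2 were higher and 0 lower at p under 0.05 before adjustment (4.43% and 3.46% of all genes), and DESeq2 called 1, Pold2 (1.97% of all genes with an adjusted p).

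Pold2, the small accessory subunit of polymerase delta, showed the clearest separation. It had 26.6, 124, 119 and 82.0 CPM in endosteal WT libraries and 21.7, 25.2, 12.1 and 17.2 CPM in central WT libraries. Every endosteal library was higher than every central library, although endosteal A was close to central B. The log2 fold change was 2.18 ± 0.67 (SE, edgeR's quasi-likelihood test, p = 0.00645, adjusted p = 0.461), and an exact two-sided permutation test gave 0.0286, the smallest p that 4 libraries against 4 allow. Pcna, the sliding clamp, also did not overlap, with 108, 103, 145 and 131 CPM against 64.3, 88.3, 87.2 and 82.6 CPM (0.58 ± 0.41, edgeR p = 0.186, adjusted p = 0.763, exact permutation p = 0.0286). Pcna reads can also belong to the pseudogene copies Pcna-ps1 and Pcna-ps2. Groups failed to overlap in 2 of 50 genes in this direction (4.27% of all genes) and in 0 in the other (2.09%).

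E2f1, the transcription factor of the G1 to S passage, had 171, 20.0, 91.0 and 117 CPM in endosteal WT and 2.72, 34.8, 42.9 and 23.6 CPM in central WT libraries. The groups overlapped through endosteal B (log2 fold change 1.93 ± 0.83, edgeR p = 0.0359, adjusted p = 0.594, exact permutation p = 0.114). Slbp, which binds the stem-loop of histone mRNA, followed with 93.8, 103, 149 and 146 CPM against 51.6, 30.8, 55.0 and 101 CPM (1.02 ± 0.50, edgeR p = 0.0648, adjusted p = 0.641, exact permutation p = 0.0571). Among the other roles, 5 of the 6 subunits of the origin recognition complex and 5 of the 6 MCM2-7 genes had a higher fitted level, with medians of 0.55 and 0.25, which turned to -0.16 and -0.07 with spike-in size factors. Mcm3, Mcm6 and the licensing factor Cdt1 differed by at most 0.04 and changed sign under other settings. The 3 subunits of replication protein A, which coats single-stranded DNA, had negative values from -0.57 to -0.04, and all 3 were negative under both other scalings too. On the lower side, Orc1 (-1.52 ± 1.26), Gmnn (-1.06 ± 0.63), the gene of the CDT1 inhibitor geminin, and Pola1 (-0.67 ± 0.57), the catalytic subunit of polymerase alpha, had the smallest p of the negative values, and none was under 0.1 in edgeR. Mcm2 (-0.50 ± 0.43) was the only MCM2-7 gene below 0 with the TMM scaling, and it stood at 0.07 when central WT A and C, the libraries with at most 1500000 gene counts, were left out. Positive values that did not pass the test were seen for Tyms (0.98 ± 0.51), Rrm2 (0.64 ± 0.60), Mcm4 (0.60 ± 0.73), Mcm7 (0.56 ± 0.49), Mcm5 (0.47 ± 0.41) and Cdc6 (1.85 ± 1.29, and 1.16 to 3.42 with each library left out). Cdc6, which loads the helicase, was at 0 counts in central WT C. Fen1, the flap nuclease of Okazaki fragments, had 0.49 to 6.18 CPM in endosteal WT and 0 counts in all central WT libraries. The endosteal mean was at least 7.70-fold higher when 3 counts over the central group, or 0.37 CPM, are taken as the floor. That floor covers counting error only, and endosteal WT A, at 0.49 CPM, was close to it.

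The same comparison in libraries labelled Gfra2-/- had the largest median. Of 51 genes tested, 38 had a higher and 13 a lower fitted level in endosteal HSCs, and 51.6% of all genes were higher. The median log2 fold change was 0.35, against 0.03 over 13860 genes. In edgeR 0 passed an FDR of 0.1 (0.00% of all genes), 6 were higher and 1 lower at p under 0.05 before adjustment (2.74% and 2.05% of all genes), and DESeq2 called 4, namely Mcm10, Rrm1, Rrm2 and Tyms (1.22% of all genes). Without endosteal B and D, 25 of 51 genes were higher, the median was -0.01, and 1 gene, Tyms, was higher and 0 lower at p under 0.05 (1.92% and 3.16% of all genes). In the libraries with over 0.5% spike-in reads the median was 0.55. In the pair of libraries with low spike-in shares, the median difference of log2(CPM + 1) was 0.06.

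Among the roles, nucleotide supply held the most genes with a p under 0.05 here, 3 of 5. All 5 had a higher fitted level, with a median of 1.04. The E2F activators E2f1 and E2f2 had a higher median, 1.84, and neither had a p under 0.05. With spike-in size factors 4 of the 5 genes of nucleotide supply were higher, with a median of 1.08. In WT, too, 4 of the 5 had a higher fitted level in endosteal HSCs, with a median of 0.64. With spike-in size factors this was 2 of 5 in WT, with a median of -0.21. Rrm1, the large subunit of ribonucleotide reductase, had 268, 357, 175 and 301 CPM in endosteal and 145, 125 and 132 CPM in central Gfra2-/- libraries. Rrm2, its small subunit, had 72.0, 143, 93.5 and 76.5 CPM against 46.6, 15.6 and 30.4 CPM. For Tyms, the gene of thymidylate synthase, the values were 130.5, 548, 109.5 and 109 CPM against 46.6, 50.2 and 62.7 CPM. In all 3 genes the endosteal libraries lay above the central ones, and B was the highest, in Tyms by far. The log2 fold changes were 1.04 ± 0.29 for Rrm1 (edgeR p = 0.00664, exact permutation p = 0.0571), 1.64 ± 0.50 for Rrm2 (p = 0.00923, exact permutation p = 0.0286) and 2.07 ± 0.64 for Tyms (p = 0.0106, exact permutation p = 0.114), each with an adjusted p of 0.896 in edgeR. With 4 libraries against 3, too, 0.0286 is the smallest p that such permutations can give. Without endosteal B and D the log2 fold changes of Rrm1, Rrm2 and Tyms were 0.72, 1.43 and 1.18. Groups that do not overlap stay so when libraries are left out, so the lack of overlap in that setting adds nothing. Tk1 (thymidine kinase) and Dut had positive values with overlapping groups. Tyms reads can also belong to a pseudogene copy.

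Mcm10, which helps to start the helicase, had 47.3, 47.2, 14.0 and 87.6 CPM in endosteal and 4.72, 5.11 and 14.4 CPM in central Gfra2-/- libraries. Endosteal C lay just under central C, and the other endosteal libraries were higher (2.60 ± 0.82, edgeR p = 0.0118, adjusted p = 0.896, exact permutation p = 0.0857). Rpa2, the middle subunit of replication protein A, had 147, 247, 196 and 218 CPM against 83.7, 97.8 and 135 CPM, with no overlap (0.94 ± 0.31, edgeR p = 0.0140, adjusted p = 0.903, exact permutation p = 0.0571). Without B and D the values were 1.92 for Mcm10 and 0.70 for Rpa2, and neither was at p under 0.05 in edgeR. The partners Rpa1 and Rpa3 had negative values. Prim2, the large subunit of primase, was highest in B and D, with 27.4, 105, 51.5 and 175 CPM against 38.6, 21.3 and 35.1 CPM (1.51 ± 0.65, edgeR p = 0.0467, exact permutation p = 0.229), and its value without B and D was 0.32.

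Pold3, an accessory subunit of polymerase delta, went the other way. It had 39.5, 29.9, 91.4 and 35.1 CPM in endosteal and 121, 133 and 185 CPM in central Gfra2-/- libraries, so that every endosteal library was lower (-1.58 ± 0.46, edgeR p = 0.00739, adjusted p = 0.896, exact permutation p = 0.0571). Its value without B and D was -1.16. Rpa1 (-0.54 ± 0.33) and Gins1 (-1.47 ± 1.04), a GINS subunit, came next among the negative values, with edgeR p of 0.136 and 0.192. Without B and D they were at -0.66 and -1.19, and without central B the Gins1 value was -0.20. In all, 5 genes were higher and 2 lower without overlap (3.67% of all genes in each direction): Rrm1, Rrm2, Tyms, Rpa2 and E2f2 were higher, Pold3 and Orc1 lower. E2f2 and Orc1 were low in all libraries, at no more than 43.6 and 12.8 CPM here, and their values without B and D were 2.28 and -1.18. The MCM2-7 genes showed little difference, from -0.12 for Mcm2 to 0.65 for Mcm7 with a median of 0.33. Without B and D, Mcm3, Mcm4, Mcm5 and Mcm6 had values of -0.04, -0.47, -0.01 and -0.07, Mcm2 was at -0.39, and Mcm7 was the only positive value of the 6 at 0.62. Pcna (0.53 ± 0.41), E2f1 (1.06 ± 0.66), Gmnn (0.43 ± 0.56), Cdt1 (0.22 ± 0.61) and Cdc6 (-0.01 ± 1.08) had overlapping groups. Without B and D these 5 were at 0.07, 0.49, 0.49, -0.33 and -1.09.

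**Figure D3:**
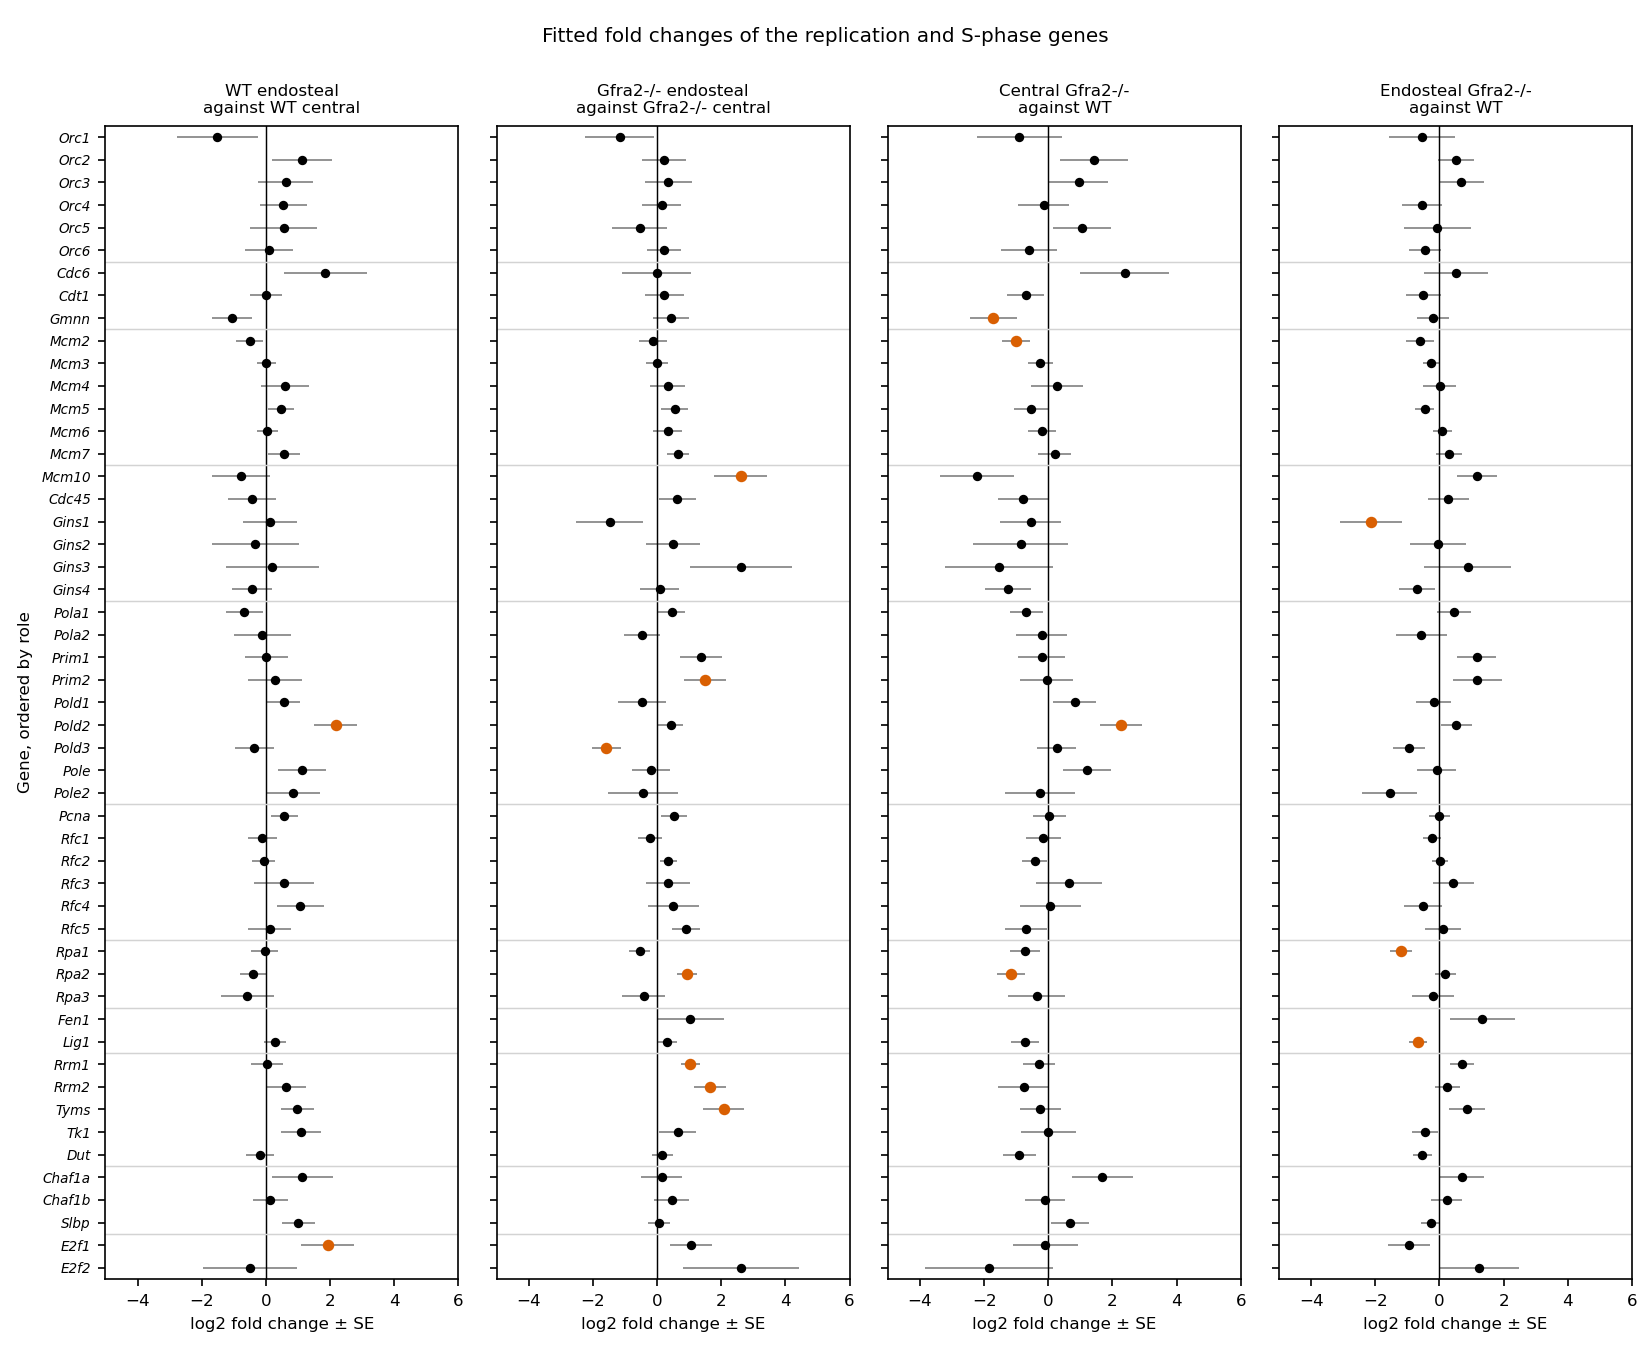
Fitted log2 fold change ± SE (x axis) of each gene (rows, by role) in the 4 comparisons, with genes at an unadjusted edgeR p under 0.05 in orange. In the 2 Fen1 gaps no value is drawn, because Fen1 was not tested in WT and is off the scale against the central WT libraries, which were all at 0. Orange points are few in each panel and most lie to the right of 0 in the second, where Rrm1, Rrm2 and Tyms follow each other.

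The third comparison asks what differs between the genotypes in central HSCs. It uses the same central libraries as the comparisons above, and its values are therefore not independent of them. Of 51 genes tested, 17 had a higher and 34 a lower fitted level in libraries labelled Gfra2-/-, and 51.4% of all genes were higher. The median was -0.24, against 0.03 over 11772 genes. None of the 51 passed an FDR of 0.1 in edgeR (0.0510% of all genes did), 2 were higher and 3 lower at p under 0.05 (4.60% and 4.14% of all genes), and DESeq2 called 1, Pold2 (3.59% of all genes). Without central WT A and C, which had at most 1500000 gene counts, the median was -0.33.

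All 6 genes of helicase activation (Mcm10, Cdc45 and Gins1 to Gins4) had a lower fitted level in libraries labelled Gfra2-/-, with a median of -1.05, and none had a p under 0.05. With spike-in size factors 5 of the 6 were lower, with a median of -1.14. The fitted levels of all 3 subunits of replication protein A were also lower, under each of the 3 scalings. Rpa2 had 83.7, 97.8 and 135 CPM against 135, 285, 322 and 189 CPM in WT, with the groups meeting at central Gfra2-/- C and central WT A (-1.16 ± 0.43, edgeR p = 0.0200, adjusted p = 0.463, exact permutation p = 0.0857). Gmnn had 36.5, 41.5 and 61.4 CPM against 22.6, 227, 97.9 and 249 CPM. Its WT values were spread more than 10-fold, and central WT A was the lowest of all 7 libraries (-1.71 ± 0.73, edgeR p = 0.0363, adjusted p = 0.528, exact permutation p = 0.257). For Mcm2 the values were 193, 174 and 200.5 CPM against 268, 192, 721 and 312 CPM, with central WT C far above the rest (-1.003 ± 0.45, edgeR p = 0.0439, adjusted p = 0.555, exact permutation p = 0.229). Without central WT C the Mcm2 value was -0.47.

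Pold2 was higher, with 106, 68.6 and 108 CPM against 21.7, 25.2, 12.1 and 17.2 CPM. The groups were far apart, and the central WT libraries lay below all 11 others of the study (2.27 ± 0.65, edgeR p = 0.00458, adjusted p = 0.319, exact permutation p = 0.0286). This rests on the same 4 WT libraries as the Pold2 value between the compartments. Fen1 had 4.26, 3.40 and 2.95 CPM against 0 counts in all central WT libraries. The mean was at least 9.48-fold higher when 3 counts over the WT group are taken as the floor, which covers counting error only. With Fen1 at that bound the median is -0.24 as before, which had to be so because Fen1 lies above the median at either value. Chaf1a, a subunit of the histone chaperone CAF-1, also did not overlap, with 35.7, 21.7 and 58.0 CPM against 3.62, 19.0, 13.4 and 11.1 CPM (1.68 ± 0.95, edgeR p = 0.101, exact permutation p = 0.0286). Fen1 and Chaf1a are among the genes with uncertain counts, and non-overlap was seen in 3 of 51 genes in this direction (7.99% of all genes) and in 0 in the other (4.44%). The remaining MCM2-7 genes had values from -0.55 (Mcm5) to 0.27 (Mcm4), and Mcm4 was -0.40 in the libraries with over 0.5% spike-in reads. Pcna (0.03 ± 0.51), E2f1 (-0.09 ± 1.004) and Tyms (-0.24 ± 0.62) were close to 0 against their errors, with Rrm2 at -0.76 ± 0.80, Cdt1 at -0.71 ± 0.58 and Cdc6 at 2.38 ± 1.39. The Cdc6 value was 0.68 without central Gfra2-/- C, 3.92 without central WT B and 0.49 in the libraries with over 0.5% spike-in reads.

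**Figure D4:**
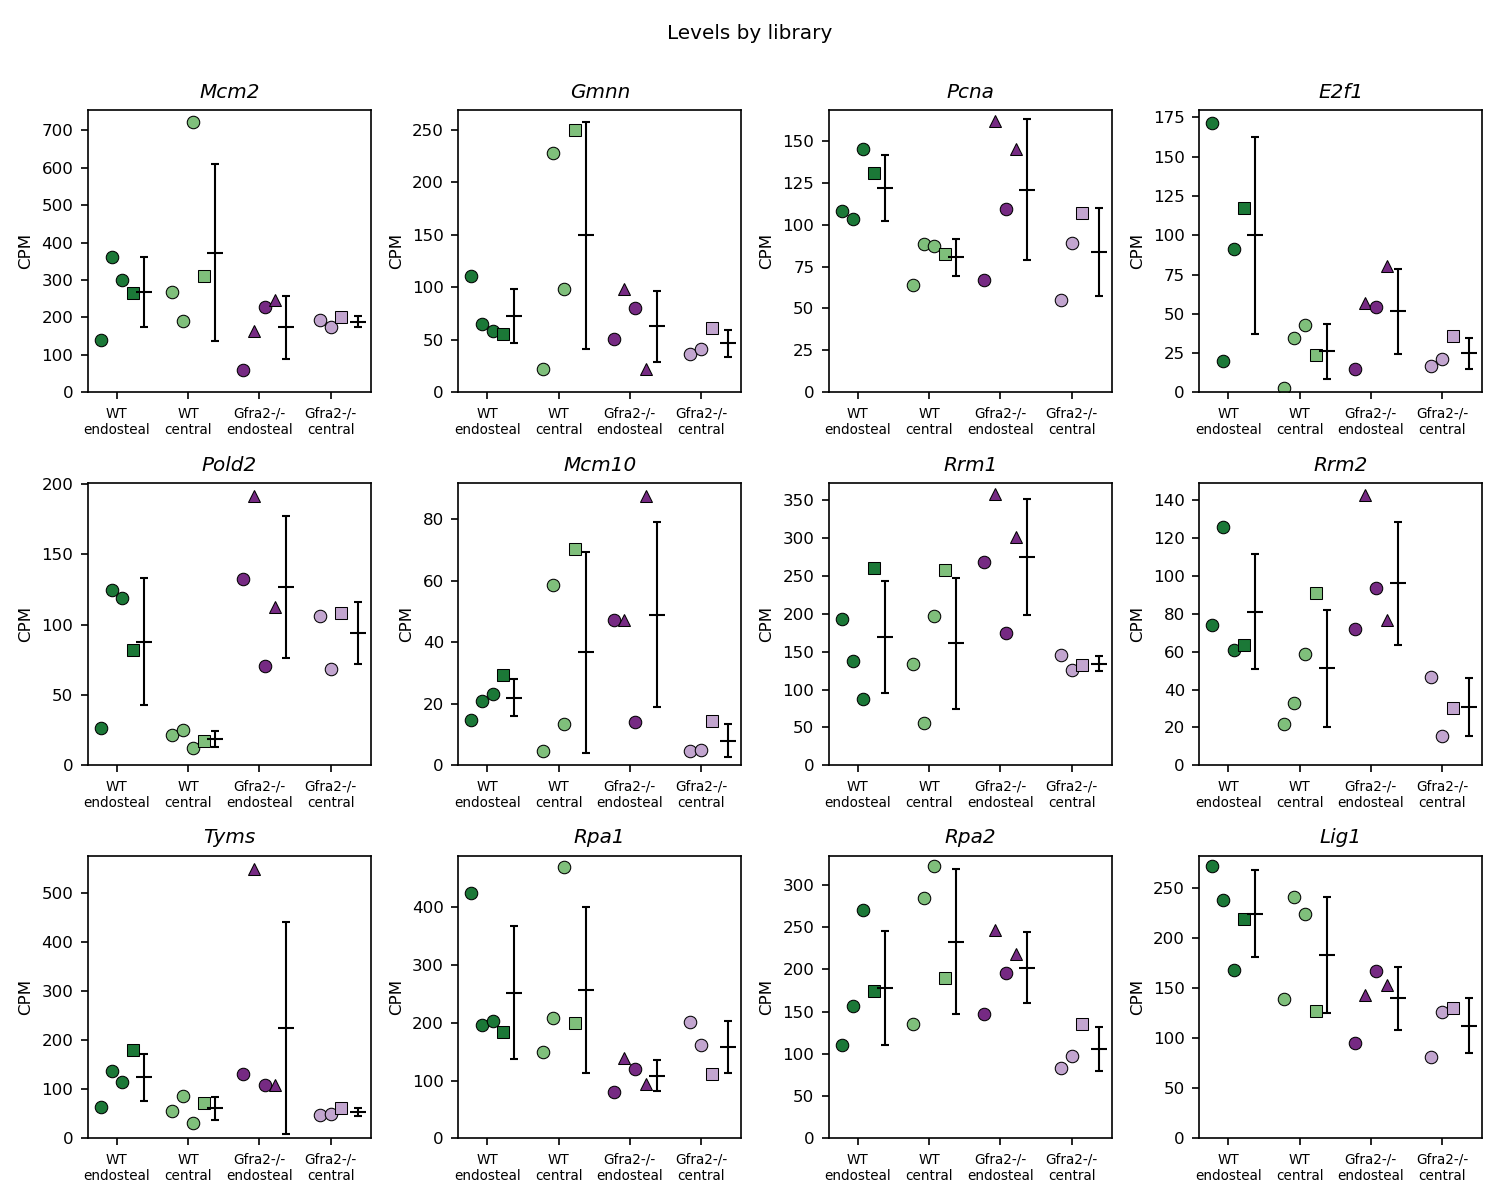
CPM of 12 genes in each library, 1 symbol per library in the order A to D, with the mean ± SD of each group as a black bar. Triangles are endosteal Gfra2-/- B and D and squares the other libraries with under 0.5% spike-in reads. All 4 central WT points of Pold2 lie at 12.1 to 25.2 CPM, the endosteal Gfra2-/- points of Rrm1 and Rrm2 lie above the central ones, and those of Rpa1 and Lig1 lie below the endosteal WT points.

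The last comparison is that of the genotypes in endosteal HSCs. Here 24 of 51 genes had a higher and 27 a lower fitted level in libraries labelled Gfra2-/-, with a median of -0.05 against 0.03 over 12970 genes, of which 51.5% were higher. In edgeR 0 passed an FDR of 0.1 (0.00% of all genes), 0 were higher and 3 lower at p under 0.05 (3.18% and 3.52% of all genes), and DESeq2 called 0 (1.09% of all genes). Without endosteal Gfra2-/- B and D, 15 genes were higher and 36 lower, the median was -0.32, and 0 were higher and 2 lower at p under 0.05 (1.92% and 3.08% of all genes). In the libraries with over 0.5% spike-in reads the median was -0.17. In the pair with low spike-in shares, the median difference of log2(CPM + 1) was 0.18, so the sign depended on the libraries here too.

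The genes of 3 roles had a lower member with a p under 0.05. Rpa1, the large DNA-binding subunit of replication protein A, had 79.3, 139.7, 120.5 and 94.8 CPM in endosteal Gfra2-/- libraries and 425, 197, 203 and 185 CPM in endosteal WT libraries. All Gfra2-/- values were below all WT values, and endosteal WT A stood far above the other WT libraries (-1.21 ± 0.35, edgeR p = 0.00540, adjusted p = 0.645, exact permutation p = 0.0286). Lig1 had 95.2, 143, 167 and 152 CPM against 272, 238, 168 and 219 CPM, again without overlap, although Gfra2-/- C and WT C nearly met (-0.68 ± 0.28, edgeR p = 0.0335, adjusted p = 0.738, exact permutation p = 0.0286). Gins1 had 3.18, 8.68, 14.9 and 3.07 CPM against 8.53, 12.7, 34.0 and 76.2 CPM, and these groups overlapped (-2.13 ± 0.95, edgeR p = 0.0482, adjusted p = 0.741, exact permutation p = 0.143). Rpa1 and Lig1 were the 2 genes without overlap in this direction (3.55% of all genes), and 0 were found in the other (2.69%). Without endosteal Gfra2-/- B and D, the Rpa1 value was -1.34, among the genes at p under 0.05, and the Lig1 and Gins1 values were -0.78 and -1.88, which were not.

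On the higher side, Rrm1 (0.70 ± 0.36), Prim1, the catalytic primase subunit (1.16 ± 0.61), and Mcm10 (1.16 ± 0.63) had the smallest p, from 0.0799 to 0.0934 in edgeR. Their values without endosteal Gfra2-/- B and D were 0.38, 0.55 and 0.48. The MCM2-7 genes lay between -0.61 (Mcm2) and 0.29 (Mcm7), and Mcm4 and Pcna were at 0.00 and -0.01. Mcm5 had 117, 253, 120.5 and 206 CPM against 255, 254, 204 and 249.5 CPM, a difference of -0.46 ± 0.30 that became -1.02 without B and D, the other gene at p under 0.05 there. The other fixed genes were Rrm2 (0.25 ± 0.38), Tyms (0.85 ± 0.57), Cdc6 (0.52 ± 1.01), Cdt1 (-0.51 ± 0.55), Gmnn (-0.21 ± 0.50), Mcm3 (-0.26 ± 0.24), Mcm6 (0.08 ± 0.30) and E2f1 (-0.94 ± 0.66), all with overlapping groups. Without B and D the Tyms value was -0.06, Rrm2 was at 0.02, Cdc6 at -0.60, Cdt1 at -1.07, Gmnn at -0.16, Mcm3 and Mcm6 both at -0.32 and E2f1 at -1.53. Mcm2, Mcm4, Mcm7 and Pcna were at -0.91, -0.80, 0.25 and -0.47 in the same fit.

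Whether the compartment difference itself differed between the genotypes was tested with an interaction term over all 15 libraries. None of the 51 genes passed an FDR of 0.1 in edgeR (0.00% of all genes), the smallest adjusted p was 0.584, and DESeq2 called 0 (1.15% of all genes). At an unadjusted p under 0.05 there were 4 (6.97% of 15416 genes). Mcm10 (3.36 ± 1.24) and Rpa2 (1.32 ± 0.52) had a larger endosteal over central difference in libraries labelled Gfra2-/-, and Pold2 (-1.77 ± 0.71) a smaller one. The fourth was Fen1, which rests on the central WT libraries at 0 counts. For Rrm1 the term was 0.96 ± 0.62 (edgeR adjusted p = 0.789), so the larger values of nucleotide supply in libraries labelled Gfra2-/- were not shown to differ from those in WT. Without endosteal Gfra2-/- B and D, 0 genes were higher and 2 lower at p under 0.05 (2.23% and 4.70% of all genes), namely Fen1 and Pold2 (-2.13). Mcm10 (2.65), Rpa2 (1.04) and Rrm1 (0.61) were not among them.

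The medians of genes with and without the E2F motif were set side by side. The 16 genes that held it had median log2 fold changes of 0.24 between the compartments in WT, 0.32 in libraries labelled Gfra2-/-, -0.25 between the genotypes in central and -0.05 in endosteal HSCs. The medians of the genes with a window but no motif were 0.13, 0.46, -0.20 and -0.01 in the same order. The medians with and without the motif, when endosteal Gfra2-/- B and D were left out, were -0.09 and 0.11 between the compartments of Gfra2-/- libraries and -0.32 and -0.43 between the genotypes in endosteal HSCs. No test was made of these differences.

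A list of 49 further replication genes (S-phase kinases and cyclins, checkpoint and fork proteins, chromatin and nucleotide enzymes) was counted in the same way. In WT, 22 were higher and 26 lower in endosteal HSCs, with a median of -0.09 (27 and 21 with spike-in size factors). Asf1a, a histone chaperone (1.62 ± 0.73, adjusted p = 0.623), and Chtf18, a clamp loader subunit (2.82 ± 1.39, adjusted p = 0.637), had the smallest p in edgeR. In libraries labelled Gfra2-/- 35 were higher and 14 lower, with a median of 0.21 (26 and 23 with spike-in size factors), led by Dck, deoxycytidine kinase (2.03 ± 0.64, edgeR adjusted p = 0.896), and Donson, a fork protein (-2.34 ± 1.05, adjusted p = 0.9995). Between the genotypes in central HSCs 17 were higher and 31 lower, with a median of -0.33 (25 and 23 with spike-in size factors), and Topbp1, which helps to activate the helicase (-1.75 ± 0.44, edgeR adjusted p = 0.3003), and Asf1a (2.10 ± 0.67, adjusted p = 0.366) came first. In endosteal HSCs 22 were higher and 26 lower, with a median of -0.07, and Dctpp1 (-0.86 ± 0.33, edgeR adjusted p = 0.738) and Topbp1 (-0.93 ± 0.38, adjusted p = 0.738) came first. None of these genes passed an FDR of 0.1 in edgeR in any of the 4 comparisons. At p under 0.05, 1 was higher and 0 lower in the first (4.43% and 3.46% of all genes), 1 and 0 in the second (2.74% and 2.05%), 1 and 4 in the third (4.60% and 4.14%) and 0 and 3 in the fourth (3.18% and 3.52%). When endosteal Gfra2-/- B and D were left out, 28 of 49 were higher between the compartments of Gfra2-/- libraries, with a median of 0.14, and 14 of 49 between the genotypes in endosteal HSCs, with a median of -0.46.

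Transcripts of mitosis, the step after S phase, were read beside the replication genes through 12 genes, Mki67, Top2a, Cdk1 and Ccnb1 among them. Their summed level was 183 to 1428 CPM in endosteal WT, 854 to 2609 CPM in central WT, 417 to 1919 CPM in endosteal Gfra2-/- and 153 to 877 CPM in central Gfra2-/- libraries. In WT, 11 of the 12 had a lower fitted level in endosteal HSCs (median -1.23), and 33 of 50 replication genes had a higher one. The replication count depended on the scaling. With DESeq2's size factors 11 of 12 mitosis genes were lower and 26 of 50 replication genes higher. With spike-in size factors, relative to the median of all genes, these counts were 9 of 12 and 23 of 50. In central HSCs all 12 were lower in libraries labelled Gfra2-/- (median -1.60, and all 12 also with both other scalings), beside 34 of 51 replication genes. Between the compartments of Gfra2-/- libraries 8 of 12 were higher, with a median of 0.69, but 4 of 12, with a median of -0.69, with spike-in size factors, and 5 of 12, with a median of -0.19, without endosteal B and D. Between the genotypes in endosteal HSCs 9 of the 11 tested were higher, with a median of 0.13, but 1 of 11, with a median of -1.07, with spike-in size factors, and 4 of 12, with a median of -0.36, without B and D. Ccnb1 (cyclin B1) and Kif11, a spindle motor, had the smallest p in WT, with -3.11 ± 1.24 and -2.29 ± 0.94 (edgeR adjusted p = 0.585 and adjusted p = 0.587). At p under 0.05 in edgeR, 3 mitosis genes were lower and 0 higher in WT (3.46% and 4.43% of all genes). Between the genotypes in central HSCs 3 were lower and 0 higher (4.14% and 4.60%). In endosteal HSCs 0 of 11 tested were lower and 1 higher between the genotypes (3.52% and 3.18%). Between the compartments of Gfra2-/- libraries 0 were lower and 0 higher (2.05% and 2.74%). None of the mitosis genes passed an FDR of 0.1 in edgeR.

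**Figure D5:**
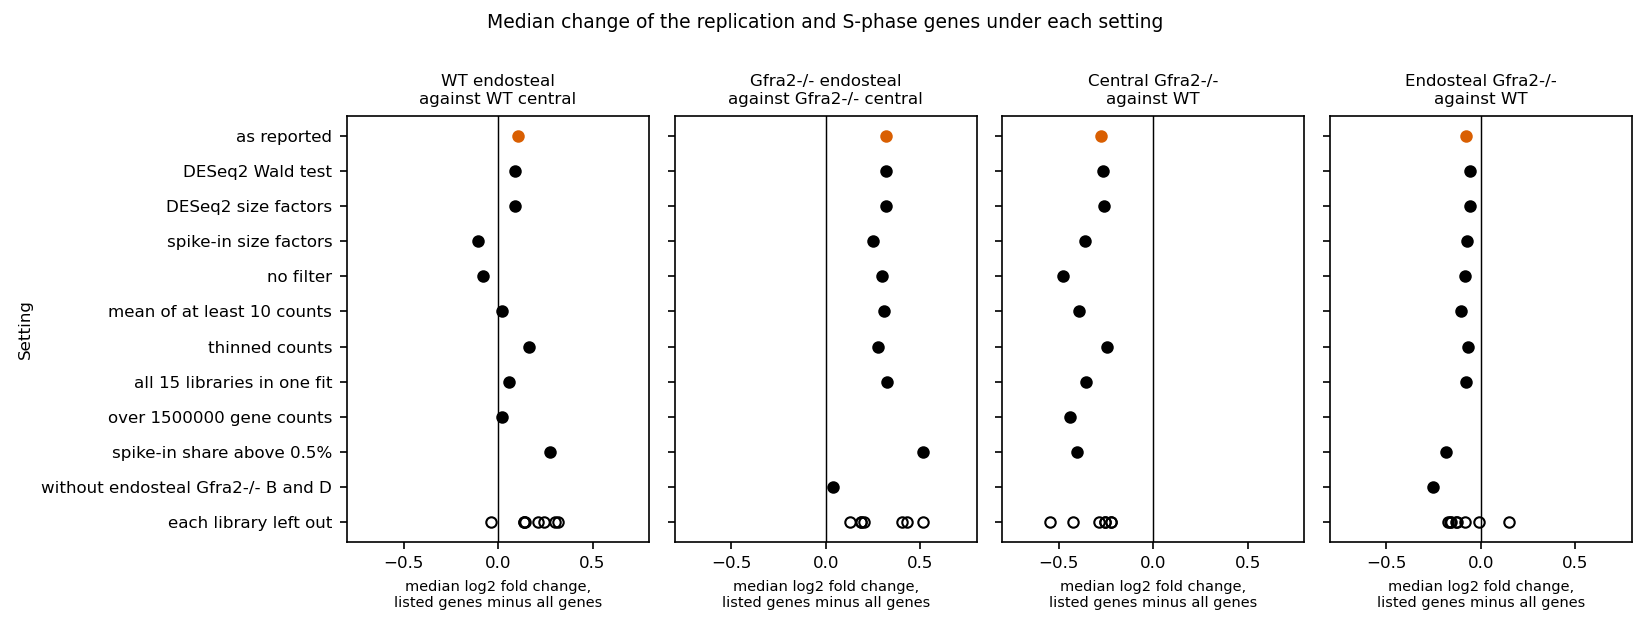
Median log2 fold change of the replication genes minus the median of all genes tested (x axis) in the 4 comparisons, under each setting tried (rows). The values lie on the right of 0 in libraries labelled Gfra2-/- between the compartments except near 0 without endosteal B and D, and on the left in the central comparison of the genotypes.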

How the data were processed

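The members and gene lists were chosen with earlier results of these data known. Per the labels and methods, libraries were made with Smart-seq2 (polyadenylated RNA, PCR without molecular identifiers) and sequenced as single-end reads of 50 bases. Depth is therefore a count of reads and not of molecules. The SEs hold the spread between libraries beside the counting error. The authors aligned reads to mm10 with GSNAP, counted them per gene with HTSeq (0.5.3p3) without strand, and deposited raw counts. Reads that fell on more than 1 gene, on either strand, were set aside as ambiguous. Per library they were 5.93% to 17.0% of the reads on genes, on no gene or ambiguous. Columns were assigned to groups through the lists of libraries in the study's supplement, and 1 column of per-sample values that could not be assigned was not used. Genes were matched to GENCODE M21 on GRCm38.

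Spike-ins and summary categories were left out. Each comparison was fitted with edgeR 4.0.16 (R 4.3.3; the 2 groups only, filterByExpr, TMM, quasi-likelihood test, Benjamini-Hochberg over all genes, FDR 0.1), and the interaction over 15 libraries. SEs were the fold change divided by the root of F. CPM used TMM over 15 libraries, and single genes were compared by exact two-sided permutation of CPM. The fits were tested on simulated counts. Named genes were Mcm2 to Mcm7, Pcna, Cdc6, Cdt1, Gmnn, Rrm2, Tyms and E2f1, the 3 genes in each direction with the smallest p, and genes whose groups did not overlap; Mcm10 and Prim2 between the compartments of Gfra2-/- libraries were named after their values were seen, because their p was under 0.05. Alternatives were DESeq2 1.42.0, DESeq2 or spike-in size factors, no filter, a mean of at least 10 counts, counts thinned to 826487 per library, an FDR of 0.05, all 15 libraries in one fit, libraries with over 1500000 gene counts, libraries with over 0.5% spike-in reads, endosteal Gfra2-/- B and D left out, and each library left out. The study's own normalisation used size factors of DESeq2.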

Additional observations from a re-analysis of the deposited data

Results flagged for a closer look

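Of 84 sets of 4 libraries examined (27 named genes and the summed level, in the 3 groups of 4), 5 had a library whose gap to its nearest neighbour exceeded Dixon's 95% critical value. Chance gives about 1 in 20. Mcm5 was 204 CPM in endosteal WT C, below 249.5 to 255 CPM in the others. Rpa1 was 425 CPM in endosteal WT A, above 185 to 203 CPM. Pola1 was 287 CPM in central WT A, above 110.2 to 119 CPM. Pold3 was 91.4 CPM in endosteal Gfra2-/- C, above 29.9 to 39.5 CPM. Tyms was 548 CPM in endosteal Gfra2-/- B, above 109 to 130.5 CPM.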

How the results depend on the processing

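No paired analysis was possible because the table's columns carry no replicate numbers. Each median and count of called genes moved by less than the spread between libraries under the alternatives, except as follows. DESeq2's Wald test called 1, 4 and 1 of the replication genes (1.97%, 1.22% and 3.59% of all genes), against 0 in edgeR, between the compartments in WT, between them in libraries labelled Gfra2-/- and between the genotypes in central HSCs. Spike-in size factors moved the median to 1.47, -0.20 and 1.39 in the same order, with the median of all genes. Without endosteal Gfra2-/- B and D the median between the compartments in libraries labelled Gfra2-/- was -0.0057. The causes were not tested. Leaving out each library moved the median from 0.06 (without central A) to 0.38 (without central D) in WT, from 0.18 (without central B) to 0.56 (without central C) in libraries labelled Gfra2-/-, from -0.54 (without Gfra2-/- C) to -0.18 (without WT D) in central and from -0.19 (without Gfra2-/- B) to 0.13 (without Gfra2-/- A) in endosteal HSCs, with 0 genes called each time in edgeR. At an FDR of 0.05, edgeR called 0. The low depth of the central WT libraries limits every comparison with them.

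Values of single named genes that changed sign lay close to 0 or had a wide error, and none passed the test. With DESeq2's Wald test, Mcm3 was -0.10, Mcm6 -0.085 and Cdt1 -0.096 between the compartments in WT, Mcm3 was -0.0036 between the compartments in libraries labelled Gfra2-/- and Pcna was -0.063 between the genotypes in central HSCs. With DESeq2's size factors, Mcm3 was -0.11, Mcm6 -0.085 and Cdt1 -0.096 between the compartments in WT, Mcm3 was -0.0037 between the compartments in libraries labelled Gfra2-/- and Pcna was -0.063 between the genotypes in central HSCs. With spike-in size factors, relative to the median of all genes, Mcm3 was -0.065, Mcm5 -0.075, Mcm6 -0.14, Cdt1 -0.33, Rrm2 -0.32 and Pola1 0.045 between the compartments in WT, Mcm2 was 0.094, Mcm3 -0.13 and Gmnn -0.36 between the compartments in libraries labelled Gfra2-/-, Mcm3 was 0.12, Mcm6 0.35 and E2f1 0.17 between the genotypes in central HSCs and Mcm3 was 0.066, Mcm4 -0.25 and Tyms -0.091 between the genotypes in endosteal HSCs. Without a filter on low counts, Cdc6 was 0.018 between the compartments in libraries labelled Gfra2-/- and Pcna was 0.0064 between the genotypes in endosteal HSCs. With a mean of at least 10 counts, Mcm4 was -0.016 between the genotypes in endosteal HSCs. With thinned counts, Mcm3 was -0.094 and Mcm6 -0.088 between the compartments in WT, Cdc6 was 0.046 between the compartments in libraries labelled Gfra2-/- and Mcm4 was -0.12 and Pcna 0.025 between the genotypes in endosteal HSCs. With libraries of over 1500000 gene counts only, Mcm2 was 0.071 and Cdt1 -0.21 between the compartments in WT and Pcna was -0.069 between the genotypes in central HSCs. With libraries of over 0.5% spike-in reads only, Mcm3 was -0.015 between the compartments in WT, Cdc6 was 0.96 between the compartments in libraries labelled Gfra2-/-, Mcm4 was -0.40 and Pcna -0.19 between the genotypes in central HSCs and Mcm6 was -0.30 between the genotypes in endosteal HSCs. Without endosteal Gfra2-/- B and D, Mcm3 was -0.041, Mcm4 -0.47, Mcm5 -0.0057, Mcm6 -0.074 and Cdt1 -0.33 between the compartments in libraries labelled Gfra2-/- and Mcm4 was -0.80, Mcm6 -0.32, Cdc6 -0.60 and Tyms -0.058 between the genotypes in endosteal HSCs. With each library left out, the values that changed sign ranged as follows: Mcm2 -0.71 to 0.035, Mcm3 -0.11 to 0.21, Mcm6 -0.10 to 0.31 and Cdt1 -0.22 to 0.27 between the compartments in WT; Mcm2 -0.34 to 0.17, Mcm3 -0.23 to 0.44, Cdc6 -0.74 to 1.66 and Cdt1 -0.29 to 0.87 between the compartments in libraries labelled Gfra2-/-; Mcm4 -0.40 to 0.92, Mcm6 -0.89 to 0.11, Pcna -0.20 to 0.26 and E2f1 -0.47 to 0.25 between the genotypes in central HSCs; Mcm4 -0.32 to 0.24, Mcm6 -0.15 to 0.24, Pcna -0.19 to 0.18, Cdc6 -0.23 to 1.22, Gmnn -0.52 to 0.060, Rrm2 -0.020 to 0.53 and Tyms -0.11 to 1.08 between the genotypes in endosteal HSCs.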
